A study of Homo sapiens with 12 samples.

Results

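The mRNAs of 56 genes of mitosis, the kinetochore and the spindle checkpoint were followed in 12 libraries of A375 cells, a human melanoma line that carries an activating BRAF mutation. The genes were chosen by name, from cyclins and kinases of mitotic entry to proteins of the centromere, spindle and cytokinesis, and each was found as 1 row among the 44659 genes of the raw count table. All 12 libraries came from this 1 line grown in DMEM with 10% fetal bovine serum and collected after 24 h. In the MAPKi experiment, 3 libraries came from cells given 500 nM vemurafenib, a BRAF inhibitor, with 500 nM cobimetinib, a MEK inhibitor, and 3 from cells given the DMSO solvent. In the glutamine experiment, 3 libraries came from Gln-depleted cells and 3 from CTRL cells kept in 2 mM glutamine, which the cells of the MAPKi experiment also had. The labels describe RNA from a cytoplasmic lysate and the study's methods speak of total RNA, so the fraction is uncertain. The nuclear RNA RN7SK took 3.95% to 4.40% of the counts of a MAPKi library and 1.93% to 2.15% of a DMSO library. It took 1.99% to 3.79% of a Gln-depleted library and 1.55% to 2.25% of a CTRL library. The part of this in the results was not tested. The counts are amounts of mRNA and not rates of transcription.

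When a cell enters mitosis, CDK1 with cyclin A and cyclin B starts chromosome condensation and spindle assembly, and the kinetochore, a protein layer built on the centromere, attaches each chromosome to microtubules. The spindle checkpoint holds the ubiquitin ligase APC/C inactive until all kinetochores are attached, after which APC/C with CDC20 marks cyclin B and securin for destruction and the chromosomes separate. In growing cells many of these mRNAs, though not all, are made mainly in G2 and M phase. They are under the DREAM and MuvB-MYBL2-FOXM1 complexes, which bind the promoter element CHR, and under NF-Y, which binds CCAAT boxes. In bulk libraries, fewer cells of a phase and less mRNA per cell cannot be told apart.

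Libraries held between 31056296 and 40071368 counts. The melanocyte lineage factor SOX10 lay between 12162 and 30813 normalized counts in the 12 libraries, while the leukocyte gene CD3E was at 0 throughout. The summed count of 7 melanocyte markers was higher with MAPKi (305800 to 388900) than with DMSO (46650 to 49390). Most of the MAPKi sum was DCT (244150 to 324075), and S100B was lower with MAPKi (1332 to 1473) than with DMSO (5841 to 6302). The same sum was lower in Gln-depleted (23480 to 26090) than in CTRL libraries (36100 to 44680), and with MAPKi that of 4 epithelial markers, nearly all KRT18, was lower (768.3 to 823.4 against 3140.0 to 3440.0). Their part in the results was not tested. The MAPKi and glutamine experiments were sequenced in different batches, and in the glutamine experiment replicate 1 of both groups belonged to experimental batch 1 and replicates 2 and 3 to experimental batch 2. The labels do not say whether replicates were separate cultures, so p-values measure the spread between these libraries, which may be technical.

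With MAPKi the mitotic mRNAs fell almost without exception. Of the 56, 54 were lower than with DMSO and 0 were higher (edgeR quasi-likelihood test, adjusted p at most 0.05), where 38.8% of the 12592 protein-coding genes tested were called lower and 39.3% higher. No member was higher at an unadjusted p under 0.05 either, and DESeq2 gave the same counts of 54 and 0. The median log2 fold change was -1.45 over the 56 members and 0.01 over all tested genes. A stricter test against a 1.5-fold change called 51 members lower (18.4% of all tested genes lower and 17.2% higher), leaving out BUB3, CENPF and SPC25 beside the 2 that had not passed, CDC25B and CENPN. The adjusted p of the 54 lay between 1.5e-09 and 0.00713. In the same 54, every MAPKi library lay below every DMSO library, against 40.2% of tested genes (40.8% separated in the other direction and no member did). Together the 56 genes took 0.331% to 0.361% of a MAPKi library and 0.775% to 0.839% of a DMSO library.

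Without glutamine the same genes lay lower on average, by a smaller amount and with more scatter. The log2 fold change was negative for 53 of the 56, with a median of -0.72 (0.00 over all tested genes), and 18 members passed as lower and 0 as higher, where 8.29% of the 12504 tested genes were called lower and 9.44% higher. By DESeq2, 25 members were lower and 0 higher (12.4% and 14.0% of tested genes), and none was higher at an unadjusted p under 0.05 in the edgeR fit. Against a 1.5-fold change 3 members passed, AURKB, NCAPH and MYBL2, all lower (2.1% of tested genes lower and 3.47% higher). Replicate numbers of this experiment marked shared batches, and with the replicate number as a block 42 members were lower and 0 higher (23.8% and 25.2% of tested genes under the same fit), all 18 among them. Every Gln-depleted library lay below every CTRL library for 28 members, against 19.7% of tested genes. Of the 56 genes, 46 were lower in all 3 numbered pairs, and the share of all tested genes that did so was not taken. The count of 18 without the block depended on single libraries. It was 3 without Gln-depleted replicate 2, 10 without Gln-depleted replicate 3, 9 without CTRL replicate 2 and 11 without CTRL replicate 3. The shares of all tested genes called in these smaller fits are not given here. The 56 genes took 0.361% to 0.363% of a Gln-depleted library and 0.602% to 0.711% of a CTRL library.

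**Figure D1:**
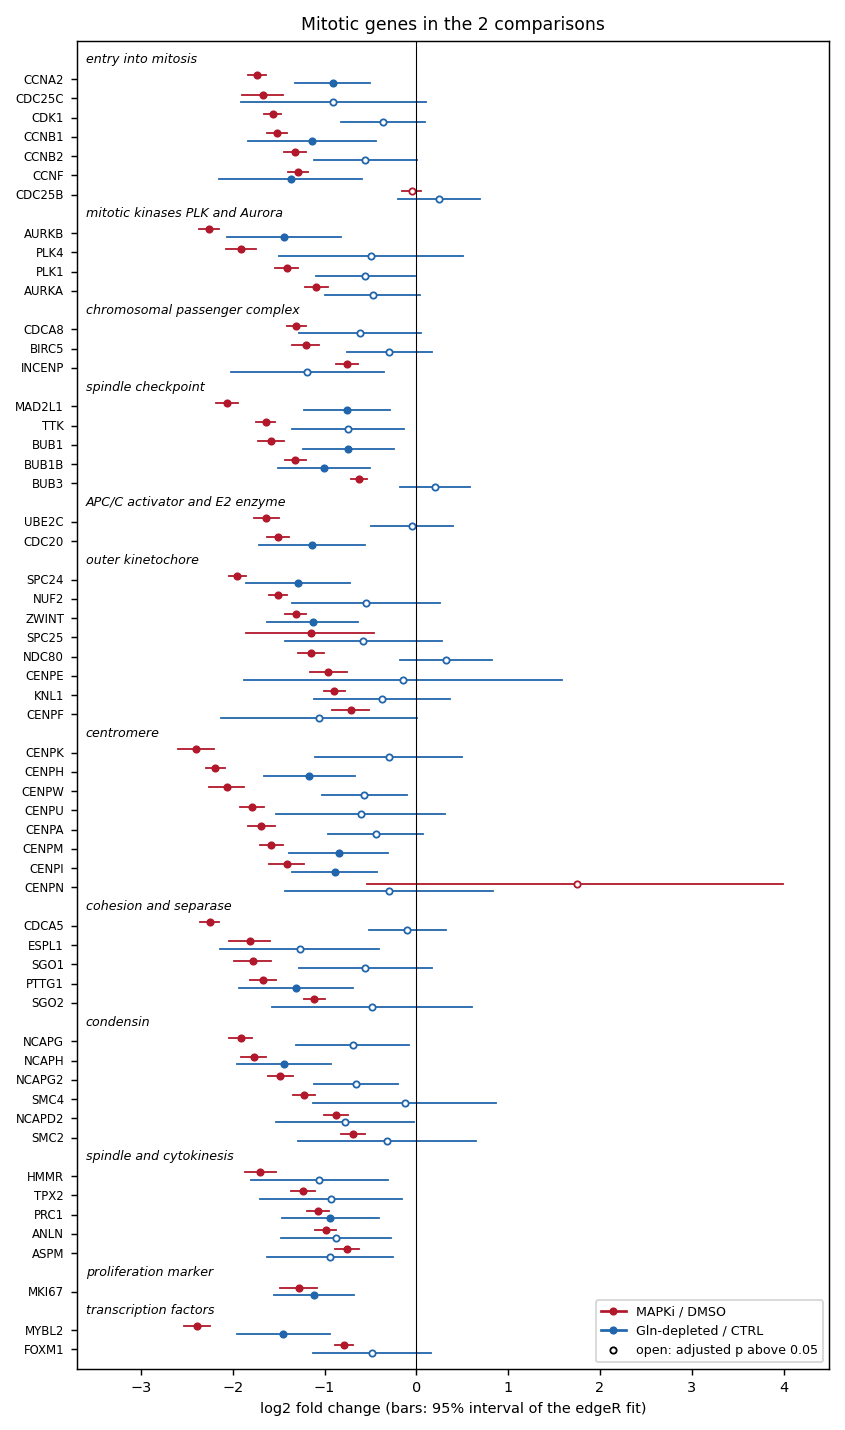
Log2 fold change of each of the 56 genes (x axis) by role, MAPKi against DMSO in red and Gln-depleted against CTRL in blue, with the 95% interval of the fit; filled points have an adjusted p of at most 0.05. Of the red points, 55 lie left of 0, mostly with short bars, and 54 of them are filled. Of the blue points, 53 lie left of 0, mostly with wider bars, and 18 of them are filled.

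The standard error of the log2 fold change was smaller in the MAPKi comparison for 55 of the 56 members (median 0.056, against 0.264 in the glutamine comparison). Both medians are from fits without the replicate block. With the block each glutamine error was smaller, for example 0.154 in place of 0.755 for CENPE and 0.106 in place of 0.165 for BUB3.

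The promoters of 6 members, chosen after their values were seen, are shown because genes of this kind are known to share promoter elements and because these 6 span the changes measured. RefSeq promoter sequences, of 250 bases before to 50 after the annotated start (GRCh38.p14), were matched by symbol for 46 of the 56 members and not for AURKA, BIRC5, BUB3, TTK, UBE2C, KNL1, CENPH, CENPM, TPX2 and FOXM1. The letters searched on both strands were TTTGAA for the CHR, CCAAT for the CCAAT box bound by NF-Y, and any of TTTCCCGC, TTTGGCGC, TTTCGCGC and TTTGCCGC for E2F, none of which overlapped another in the sequences below. CDC20 and PLK1 hold CHR and CCAAT matches, CENPK holds CCAAT alone, CDCA5 holds an E2F match alone, and MYBL2 and CDC25B hold none of these letters. Matches are in capitals and the strand shown is that of the gene.

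CDC20 (chr1:43358731-43359030, plus strand): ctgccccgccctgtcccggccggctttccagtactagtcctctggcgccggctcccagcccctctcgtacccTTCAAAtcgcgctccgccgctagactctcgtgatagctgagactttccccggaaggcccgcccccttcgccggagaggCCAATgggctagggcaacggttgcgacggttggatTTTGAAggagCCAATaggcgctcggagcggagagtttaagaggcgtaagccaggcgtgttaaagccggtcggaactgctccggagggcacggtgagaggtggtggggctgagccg
PLK1 (chr16:23678639-23678938, plus strand): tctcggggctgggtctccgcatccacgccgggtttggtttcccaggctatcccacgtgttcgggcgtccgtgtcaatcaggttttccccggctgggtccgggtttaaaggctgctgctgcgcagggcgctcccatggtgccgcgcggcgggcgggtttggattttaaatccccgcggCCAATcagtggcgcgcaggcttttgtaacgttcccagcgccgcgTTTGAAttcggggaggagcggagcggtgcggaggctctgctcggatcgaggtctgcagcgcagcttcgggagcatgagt
CENPK (chr5:65563119-65563418, minus strand): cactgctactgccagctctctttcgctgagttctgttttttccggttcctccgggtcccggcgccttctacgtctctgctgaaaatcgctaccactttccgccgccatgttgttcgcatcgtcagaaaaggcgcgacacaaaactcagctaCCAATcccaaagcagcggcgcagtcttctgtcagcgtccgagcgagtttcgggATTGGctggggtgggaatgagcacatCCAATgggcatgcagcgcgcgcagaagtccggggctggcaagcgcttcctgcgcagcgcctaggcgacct
CDCA5 (chr11:65083991-65084290, minus strand): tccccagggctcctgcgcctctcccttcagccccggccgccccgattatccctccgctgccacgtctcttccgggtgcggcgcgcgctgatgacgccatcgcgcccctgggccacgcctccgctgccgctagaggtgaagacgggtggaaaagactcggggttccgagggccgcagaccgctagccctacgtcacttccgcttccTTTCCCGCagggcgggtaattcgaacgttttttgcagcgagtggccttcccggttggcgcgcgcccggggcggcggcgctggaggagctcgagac
MYBL2 (chr20:43666864-43667163, plus strand): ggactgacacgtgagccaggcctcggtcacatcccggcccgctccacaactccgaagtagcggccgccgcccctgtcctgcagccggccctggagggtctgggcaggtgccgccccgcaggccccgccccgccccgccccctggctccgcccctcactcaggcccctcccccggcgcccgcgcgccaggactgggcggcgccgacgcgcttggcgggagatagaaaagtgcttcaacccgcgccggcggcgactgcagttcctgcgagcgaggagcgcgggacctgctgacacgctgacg
CDC25B (chr20:3786701-3787000, plus strand): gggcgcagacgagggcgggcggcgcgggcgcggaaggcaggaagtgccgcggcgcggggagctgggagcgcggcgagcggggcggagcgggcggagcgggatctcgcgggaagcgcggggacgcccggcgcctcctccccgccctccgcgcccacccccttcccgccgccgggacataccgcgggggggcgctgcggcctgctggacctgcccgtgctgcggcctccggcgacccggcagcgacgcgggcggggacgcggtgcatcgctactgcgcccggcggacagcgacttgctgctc

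The CHR letters stood in 28 of the 46 member promoters (60.9%), against 9.77% of the 10239 promoters of tested genes and 15.4% of the 27305 promoters of the table. CCAAT stood in 31 of the 46 (67.4%), against 36.8% and 35.7%. An E2F match stood in 4 members, CDK1, CENPA, CENPU and CDCA5 (8.7%, against 5.38% and 3.33%). Both CHR and CCAAT were found in 19 promoters (41.3%, against 4.14% and 6.08%), and 5 members held none of the letters, namely CDC25B, CDC25C, CENPE, CENPI and MYBL2. Many matches lay close to the start: CHR letters began 29 bases before it in PLK1 and in CCNB2, and 65 bases before it in CDC20. Members with and without a match were found among large and small changes. The median log2 fold change with MAPKi was -1.31 for the 28 with CHR letters and -1.75 for the 18 without, and -1.52 for the 31 with CCAAT and -1.41 for the 15 without. Without glutamine these medians were -0.72 and -0.82 for CHR, and -0.91 and -0.54 for CCAAT. For E2F, 4 members with a match and 42 without had medians of -1.74 and -1.41 with MAPKi and of -0.40 and -0.83 without glutamine, and none of these differences was tested. CDC25B and MYBL2, with -0.05 and -2.39, both lacked all letters. A match is a description of letters and not of binding, and the absence of a match says nothing on any factor.

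**Figure D2:**
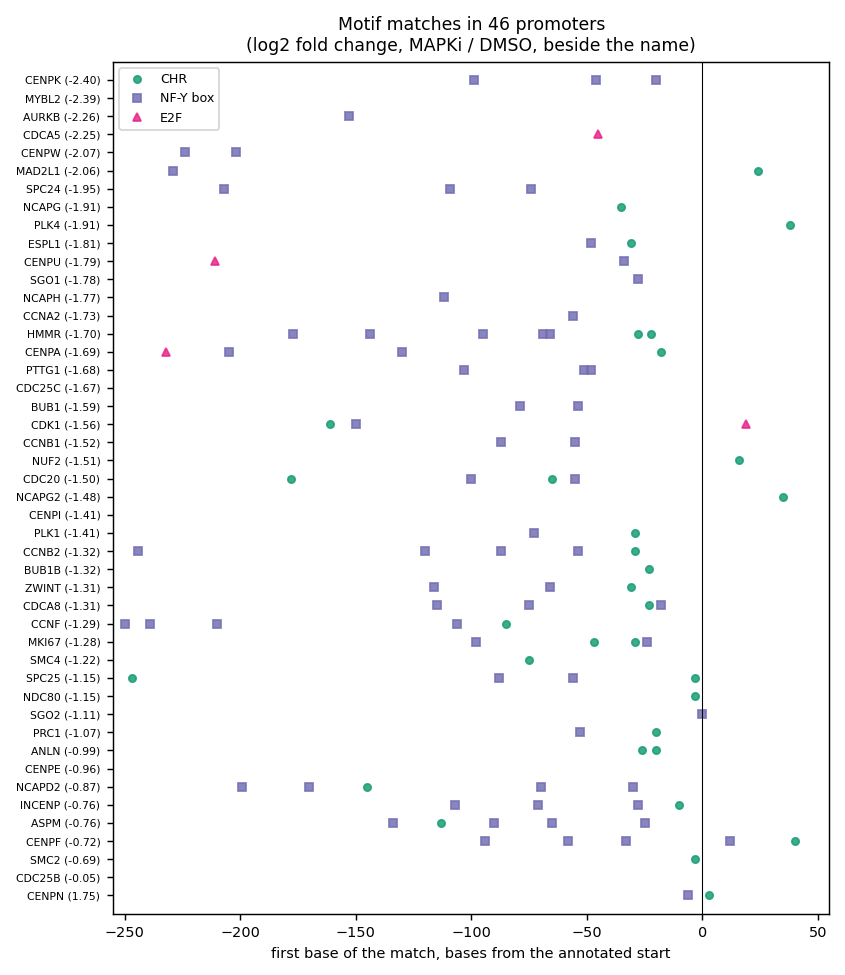
Positions of the motif letters in the 46 promoters, in bases from the annotated start (x axis), with members ordered by log2 fold change with MAPKi (value beside each name, largest fall on top); circles are CHR, squares the box bound by NF-Y and triangles E2F. CHR circles are found in 28 rows and gather near the start, and rows without any symbol occur both near the top (MYBL2) and near the bottom (CDC25B).

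Among the genes of mitotic entry, 6 of 7 fell with MAPKi. CCNA2, cyclin A2, which partners CDK2 and CDK1 from S phase to early mitosis, had 4709, 4761 and 4876 normalized counts in the DMSO libraries and 1397, 1502 and 1419.9 with MAPKi. The ranges were far apart, and the log2 fold change was -1.73 ± 0.04 (SE; adjusted p = 2.95e-09). The kinase CDK1 itself (-1.56 ± 0.04), cyclins B1 (-1.52 ± 0.05) and B2 (-1.32 ± 0.05), cyclin F (-1.29 ± 0.05), a substrate adaptor of an SCF ubiquitin ligase, and the CDK1-activating phosphatase CDC25C (-1.67 ± 0.10) also fell. Its relative CDC25B, which activates CDK1 at the centrosome in G2, was the exception. CDC25B had 7969, 7492 and 8063 normalized counts with DMSO and 7426, 7813 and 7491 with MAPKi, ranges that overlapped, with a log2 fold change of -0.05 ± 0.05 (adjusted p = 0.342). After a correction for GC content its value was -0.22 ± 0.05 (adjusted p = 0.00249), which passed as lower.

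In the glutamine experiment 3 of these 7 passed. CCNA2 had 4908, 4821 and 4038 normalized counts in CTRL and 2513, 2462 and 2336 in Gln-depleted libraries, and it was lower in each pair (-0.91 ± 0.18, adjusted p = 0.0125). CCNB1 had 11788, 6928 and 6578 in CTRL and 5152, 3036 and 3281 in Gln-depleted libraries. Replicate 1 was the highest of both groups, and the ranges did not overlap (-1.14 ± 0.31, adjusted p = 0.0368). CCNF had 7094, 3913 and 3382 in CTRL and 2550.4, 1463 and 1557 in Gln-depleted libraries, again highest in replicate 1 of each group (-1.37 ± 0.34, adjusted p = 0.0294). CDK1, CCNB2 and CDC25C had log2 fold changes of -0.36, -0.55 and -0.90 without passing. With the block they passed (adjusted p = 0.0362, 0.0236 and 0.0329). CDC25B was higher in each pair, 11071, 9476 and 9735 against 10216, 7658 and 7624, without passing (0.25 ± 0.20, adjusted p = 0.398; 0.0882 with the block).

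All 4 kinases of the PLK and Aurora families fell with MAPKi. AURKB, the enzyme of the chromosomal passenger complex that frees wrongly attached microtubules, fell the most. It had 3258, 3336 and 3452 normalized counts with DMSO and 679, 678 and 733 with MAPKi (-2.26 ± 0.05, adjusted p = 1.52e-09). AURKA, which matures centrosomes, fell the least of the 4, from 4486, 4318 and 4772 to 2003, 2212 and 2163 (-1.09 ± 0.05). The groups of both genes were well separated. PLK1, which acts from mitotic entry to cytokinesis, and PLK4, the kinase of centriole duplication, had log2 fold changes of -1.41 ± 0.05 and -1.91 ± 0.07. Without glutamine, AURKB passed alone among the 4. Its CTRL libraries held 4223, 2757 and 2542 and its Gln-depleted libraries 1482, 930.0 and 1091 normalized counts, with every Gln-depleted library below every CTRL library (-1.44 ± 0.27, adjusted p = 0.0114). PLK1, PLK4 and AURKA had -0.56, -0.49 and -0.48, and all 3 passed with the block (adjusted p = 0.00907, 0.0216 and 0.0212).

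The 3 further subunits of the chromosomal passenger complex fell with MAPKi by differing amounts. CDCA8, borealin, went from 2279.7, 2242 and 2268 to 873, 943 and 932 normalized counts (-1.31 ± 0.04). INCENP, the scaffold that activates AURKB, went from 9244, 9337 and 10398 to 5801, 5589.6 and 5765 (-0.76 ± 0.05). BIRC5, survivin, lay between them (-1.20 ± 0.06). For INCENP the value in the glutamine experiment was more negative. It had 10279.8, 5563 and 5943 normalized counts in CTRL and 4892, 2264 and 2417 in Gln-depleted libraries, with replicate 1 the highest of both groups. It did not pass (-1.19 ± 0.37, adjusted p = 0.0568) and passed with the block (-1.22, adjusted p = 0.000314).

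Of the spindle checkpoint, all 5 genes fell with MAPKi. MAD2L1, the MAD2 protein that captures CDC20, fell the most, from 3074, 2981 and 2993 to 671, 726 and 765 normalized counts (-2.06 ± 0.05, adjusted p = 3.13e-09). BUB3, the adaptor that brings BUB1 and BUBR1 to kinetochores, fell the least of any called member, from 4514, 4626 and 4609 to 2952, 3013 and 2942 (-0.63 ± 0.04, adjusted p = 3.81e-07). Its libraries were nonetheless tightly grouped and did not overlap. The kinases BUB1 (-1.59 ± 0.06) and TTK, also called MPS1 (-1.64 ± 0.05), and the BUBR1 gene BUB1B (-1.32 ± 0.05) lay between. Exons of BUB1B are in part shared with the read-through gene BUB1B-PAK6, which had at most 1 read in any library.

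Without glutamine, 3 checkpoint genes passed. BUB1 had 4829, 4551 and 3402 normalized counts in CTRL and 2423, 3020.1 and 2203 in Gln-depleted libraries (-0.74 ± 0.22, adjusted p = 0.049). BUB1B had 3414, 2935 and 2349 and 1631, 1489 and 1209.8 (-1.01 ± 0.22, adjusted p = 0.0181). MAD2L1 had 2302, 3399 and 3079.5 and 1621, 1851 and 1745 (-0.75 ± 0.21, adjusted p = 0.0396). In all 3 genes the highest Gln-depleted library stayed below the lowest CTRL library. TTK was lower in each pair and passed with the block (-0.74, adjusted p = 0.0854 without it and 0.0127 with it). BUB3 had higher values in every Gln-depleted library, 6132, 5898 and 5537 against 5111, 5110.4 and 5029.6, without passing (0.20 ± 0.17, adjusted p = 0.413), and it was the 1 member of the 56 whose groups separated in this direction (20.1% of tested genes did).

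CDC20, which activates APC/C, and UBE2C, the E2 enzyme that supplies it with ubiquitin, fell by similar amounts with MAPKi. UBE2C went from 2888, 2875 and 2877 to 842, 932 and 1010.3 normalized counts (-1.63 ± 0.06) and CDC20 from 11661, 11782 and 12032 to 3908, 4435 and 4163 (-1.50 ± 0.05). Their values parted without glutamine. CDC20 had 16614, 9484 and 10178 in CTRL and 5942, 4889.8 and 5692 in Gln-depleted libraries, with no overlap (-1.13 ± 0.25, adjusted p = 0.0199). UBE2C had 3407, 2508 and 2831 in CTRL and 2679.7, 2629 and 3172 in Gln-depleted libraries, ranges that overlapped (-0.04 ± 0.20, adjusted p = 0.892).

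The outer kinetochore, the layer that binds microtubules, fell in all 8 of its genes with MAPKi. SPC24, a subunit of the NDC80 complex, went from 2984, 3056 and 3031 to 761, 809 and 776 normalized counts (-1.95 ± 0.04, adjusted p = 1.50e-09). CENPF, a large protein of the outer plate, showed the smallest fall, from 16949, 19141 and 22503 to 12081, 11926 and 11685 (-0.72 ± 0.09). The DMSO libraries of CENPF were more spread than those of SPC24, and neither gene's groups overlapped. NDC80 (-1.15 ± 0.06), NUF2 (-1.51 ± 0.04), the scaffold KNL1 (-0.89 ± 0.05), ZWINT (-1.31 ± 0.05), which links KNL1 to the RZZ complex, and the kinesin CENPE (-0.96 ± 0.09) fell between these. SPC25, the other small subunit of the NDC80 complex, had only 41.8, 26.7 and 41.5 normalized counts with DMSO and 12.1, 15.6 and 21.2 with MAPKi (-1.15 ± 0.31). A further row of the table under the same name with a suffix held 4 to 212 reads a library, so the SPC25 count is uncertain.

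Of these 8 genes, 2 passed without glutamine. SPC24 had 3599, 2459 and 2633 normalized counts in CTRL and 1153, 934 and 1481 in Gln-depleted libraries (-1.28 ± 0.25, adjusted p = 0.0122). ZWINT had 2431, 2514 and 3012 and 1432, 953 and 1249.7 (-1.13 ± 0.22, adjusted p = 0.0121). In both, all Gln-depleted libraries lay below all CTRL libraries. NUF2 and CENPF did not pass but did so with the block (-0.49 and -1.01, adjusted p = 0.0201 and 0.000667). NDC80, the namesake of the complex, lay higher in each Gln-depleted library than in its numbered CTRL partner, 1143, 1749 and 1367 against 1044, 1285 and 1068, without passing (0.33 ± 0.22, adjusted p = 0.321; 0.0624 with the block).

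At the centromere, 7 of 8 genes fell with MAPKi, among them CENPK, whose fall and that of MYBL2 were the largest of the 56 and did not differ beyond their errors. CENPK, a subunit of the constitutive centromere network (CCAN), went from 874, 902 and 907 to 170.2, 149.5 and 188 normalized counts (-2.40 ± 0.09, adjusted p = 1.79e-08). CENPI, of the same network, fell the least of the 7, from 670.2, 685 and 799 to 262, 278 and 269.8 (-1.41 ± 0.08). Both changes were several times the spread within a group. CENPH (-2.19 ± 0.05), CENPW (-2.07 ± 0.08), CENPU (-1.79 ± 0.06), CENPM (-1.58 ± 0.05) and CENPA (-1.69 ± 0.06), the histone H3 variant that marks the centromere, fell too. CENPN, which reads the CENPA nucleosome, had few reads, 16.1, 5.94 and 13.5 normalized counts with DMSO and 7.05, 5.58 and 104 with MAPKi. Its log2 fold change of 1.75 ± 1.00 (adjusted p = 0.14) rested on MAPKi replicate 3, and it passed as higher without MAPKi replicate 1 (2.23, adjusted p = 0.038) or replicate 2 (2.25, adjusted p = 0.0484). Exons of other annotated genes cover 23.1% of its exon bases, and the strand setting of the counting is not given in the sources used here.

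Without glutamine 3 centromere genes passed. CENPH had 2002, 2069 and 2102 normalized counts in CTRL and 744, 852 and 1159 in Gln-depleted libraries (-1.16 ± 0.22, adjusted p = 0.0106). CENPI had 581, 619 and 554 and 279, 314 and 354 (-0.89 ± 0.20, adjusted p = 0.0221). CENPM had 1249, 1030.5 and 1248 and 538, 571 and 854 (-0.85 ± 0.24, adjusted p = 0.0421). The groups of each were apart, most widely for CENPH. CENPK had 451, 1030.5 and 1070.2 in CTRL and 505, 837 and 729 in Gln-depleted libraries, which overlapped (-0.30 ± 0.35, adjusted p = 0.576; 0.281 with the block). CENPW and CENPU passed with the block (adjusted p = 0.0194 and 0.017), and CENPA did not (adjusted p = 0.078).

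The 5 genes of cohesion and separase all fell with MAPKi. CDCA5, sororin, which protects cohesin on replicated chromosomes, went from 2565, 2710.1 and 2665 to 559, 575 and 534 normalized counts (-2.25 ± 0.05, adjusted p = 1.50e-09). SGO2, a shugoshin, showed the smallest fall, from 2189.6, 2383 and 2434 to 1070.3, 1094 and 1078 (-1.11 ± 0.05). The separase gene ESPL1 (-1.81 ± 0.10), the securin gene PTTG1 (-1.68 ± 0.06) and SGO1 (-1.78 ± 0.09) lay between. Without glutamine PTTG1 passed, with 10059.7, 6742 and 5878 normalized counts in CTRL and 3866, 2456 and 2817 in Gln-depleted libraries (-1.31 ± 0.27, adjusted p = 0.0155). Its groups did not overlap, although replicate 1 was the highest in both. CDCA5 had 3853, 2865 and 3287 in CTRL and 3120.0, 3133 and 3105 in Gln-depleted libraries, which overlapped (-0.10 ± 0.18, adjusted p = 0.745; 0.596 with the block). ESPL1 (-1.27), SGO1 (-0.55) and SGO2 (-0.48) did not pass but did so with the block.

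The 6 condensin genes, whose proteins compact mitotic chromosomes, fell with MAPKi. NCAPG, a subunit of condensin I, went from 5434, 5768 and 6210.5 to 1535, 1583 and 1507 normalized counts (-1.91 ± 0.06). SMC2, an ATPase common to both condensins, went from 3493, 3751 and 4031 to 2295, 2424 and 2290.4 (-0.69 ± 0.06). The other values were -1.77 ± 0.06 for NCAPH, -1.48 ± 0.06 for NCAPG2 of condensin II, -1.22 ± 0.05 for SMC4 and -0.87 ± 0.06 for NCAPD2. Exons of LCORL cover 33.7% of the exon bases of NCAPG. Without glutamine NCAPH passed, also against a 1.5-fold change. It had 6399, 4327 and 4615 in CTRL and 2150.1, 1622 and 1871 in Gln-depleted libraries, with every Gln-depleted library far below the lowest CTRL library (-1.44 ± 0.22, adjusted p = 0.00593). SMC2 and SMC4 passed neither without nor with the block (adjusted p = 0.13 and 0.8 with it). NCAPG, NCAPG2 and NCAPD2 did not pass but did so with the block.

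All 5 genes of the spindle and cytokinesis fell with MAPKi, as did MKI67. HMMR, a microtubule-binding protein of the spindle poles, went from 5739.9, 5749 and 6617 to 1706, 1904 and 1965 normalized counts (-1.70 ± 0.07). ASPM, which focuses spindle poles, went from 7449, 7573 and 8432 to 4784, 4617 and 4492 (-0.76 ± 0.06). TPX2, the activator of AURKA (-1.23 ± 0.06), PRC1, which bundles the central spindle (-1.07 ± 0.05), and ANLN, anillin of the contractile ring (-0.99 ± 0.05), lay between. MKI67, the Ki-67 protein that coats mitotic chromosomes, had 12231, 12956 and 15807 normalized counts with DMSO and 5775, 5686 and 5396 with MAPKi (-1.28 ± 0.09). Its DMSO replicate 3 was the highest library, and the groups did not overlap.

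Without glutamine, 2 of these 6 genes passed. PRC1 had 7836, 5596 and 5128 normalized counts in CTRL and 3762, 3228 and 2713 in Gln-depleted libraries (-0.94 ± 0.23, adjusted p = 0.0286). MKI67 had 7165, 5853 and 5406 and 3064, 2846 and 2616 (-1.11 ± 0.19, adjusted p = 0.00834). Both were lower in all 3 pairs without overlap. Exons of other annotated genes, PRC1-AS1 among them, cover 61.9% of the exon bases of PRC1, and PRC1-AS1 itself had 25 to 98 reads a library. TPX2, ANLN, ASPM and HMMR had log2 fold changes from -1.06 (HMMR) to -0.88 (ANLN), each with an adjusted p above 0.05 and each passing with the block.

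The transcription factors moved unequally. MYBL2, the B-MYB subunit that joins MuvB in S phase, had 6192, 6399.8 and 6279.9 normalized counts with DMSO and 1075, 1271 and 1258 with MAPKi (-2.39 ± 0.06, adjusted p = 3.92e-09). FOXM1, which joins the complex in G2, went from 6193, 5899 and 5826 to 3370.1, 3492 and 3518 (-0.79 ± 0.04, adjusted p = 2.18e-07). Neither gene's groups overlapped. Without glutamine MYBL2 had 8065, 7435 and 8489.8 in CTRL and 2498, 2529 and 3765 in Gln-depleted libraries (-1.45 ± 0.22, adjusted p = 0.00544), beside NCAPH and AURKB, from which its fall did not differ beyond the errors. FOXM1 had 6500.3, 6557 and 8206 and 3507, 4485 and 7250.2, ranges that overlapped. It did not pass (-0.48 ± 0.28, adjusted p = 0.259) and passed with the block (adjusted p = 0.0209).

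**Figure D3:**
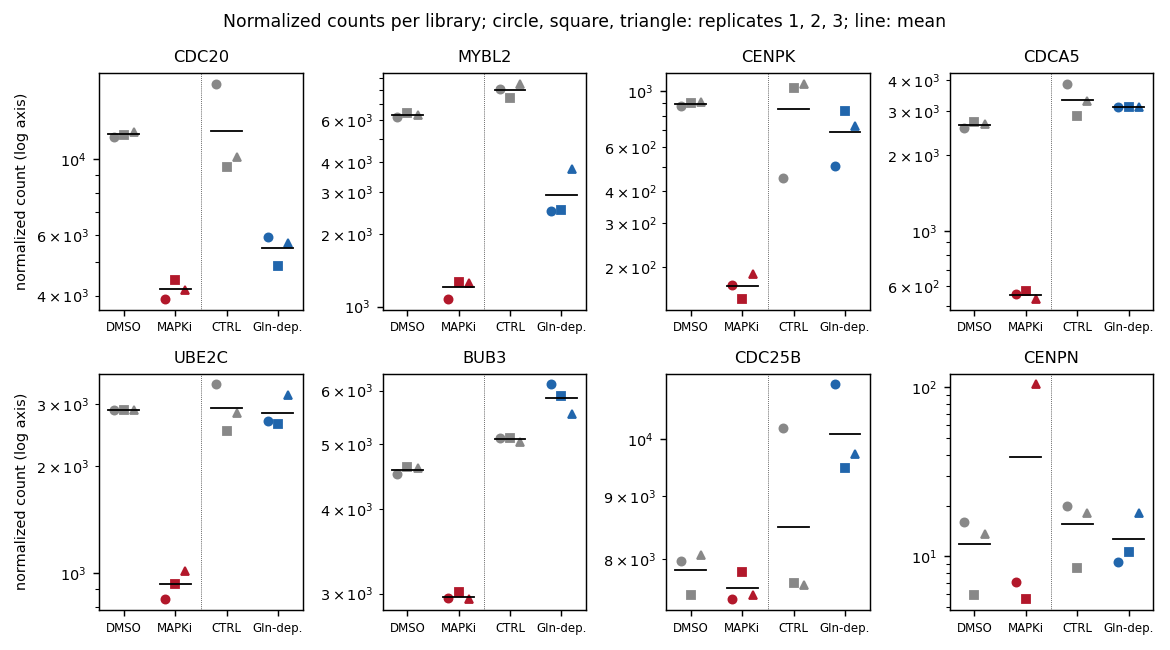
Normalized counts (log axis) of 8 genes in each library of the 4 groups, circles for replicate 1, squares for 2 and triangles for 3, with the group mean as a line. CDC20 and MYBL2 are low in MAPKi and in Gln-depleted libraries, CENPK, CDCA5, UBE2C and BUB3 are low in MAPKi libraries, and the 3 MAPKi points of CENPN span 5.58 to 104.39.

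Levels per kilobase of exon put CDC20 highest among the 56 in DMSO cells, at 5877 ± 94.1 normalized counts per kilobase (SD, n = 3). PTTG1 (3665 ± 148) and CCNB1 (3517 ± 145) came next and did not differ beyond the spread of their libraries, and NCAPD2 followed (3140.0 ± 142). CDC20 was also the highest in CTRL (6010.0 ± 1950.0), in MAPKi (2072 ± 131) and in Gln-depleted cells (2738 ± 273), but in the last 2 groups it did not differ from CDC25B (1941 ± 53.1 and 2586 ± 219) beyond the spread of the libraries. In CTRL cells the spreads of CDC20 and of PTTG1 (3828 ± 1120.0) overlapped. Within each CTRL library CDC20 had more normalized counts, 16614, 9484 and 10178 against 10059.7, 6742 and 5878. The exons of the pair are of similar length (2.012 and 1.975 kilobases), and their order was not tested. At the other end were CENPN (2.09 ± 0.928), SPC25 (20.1 ± 4.71) and CENPI (103 ± 10.1) in DMSO cells.

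The difference between the comparisons was tested in 1 fit of the 12 libraries. For 22 members the log2 fold change was lower with MAPKi than with Gln depletion and for 0 it was higher (adjusted p at most 0.05), where 20.7% of 12616 tested genes were called in the first direction and 19.9% in the second. With the replicate block 37 members were called in the first direction (31.7% of tested genes) and 1, INCENP, in the second (29.4%), with a difference of 0.51 ± 0.10 and an adjusted p of 0.00244. DESeq2 called 27 and 0 without the block, and the share of all tested genes in that fit is not given here. Since each experiment had its own sequencing batch and controls, treatment and experiment cannot be told apart in this difference.

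The largest called differences were in genes that had not passed in the glutamine comparison without the block. With the block, CENPW passed there (adjusted p = 0.0194). The difference is the MAPKi change minus the glutamine change. Where the fall with MAPKi is large, a small glutamine change gives a large difference by construction. The order of these genes is therefore not a separate result. CDCA5 differed by -2.11 ± 0.17 on the log2 scale (95% interval -2.48 to -1.73, adjusted p = 3.63e-06), and CENPK by -2.06 ± 0.40 (adjusted p = 0.00156). UBE2C differed by -1.54 ± 0.20 (adjusted p = 8.55e-05), CENPW by -1.45 ± 0.19 (adjusted p = 9.13e-05) and NDC80 by -1.43 ± 0.22 (adjusted p = 0.000305). MAD2L1 was called in both comparisons and also differed, by -1.27 ± 0.19 (adjusted p = 0.000312), as did CENPH (-0.98 ± 0.20, adjusted p = 0.00245) and MYBL2 (-0.89 ± 0.22, adjusted p = 0.00682). By role, 4 of 5 checkpoint genes, 5 of 8 centromere genes and 0 of the 5 genes of the spindle and cytokinesis were called, and with the block 5, 7 and 1, without a test between roles. The 15 genes that the block added in the first direction were CCNB1, CDC25C, AURKA, AURKB, CDCA8, BUB1B, NUF2, SPC24, KNL1, CENPE, CENPI, CENPU, SGO2, SMC4 and HMMR. Their differences ran from -1.21 (CENPU) to -0.27 (BUB1B), with adjusted p from 0.000244 to 0.0379. For PRC1 the difference was -0.08 ± 0.24 with an interval of -0.61 to 0.44, for MKI67 -0.12 ± 0.20 (-0.56 to 0.31), for ZWINT -0.14 ± 0.20 (-0.58 to 0.31) and for CCNF 0.13 ± 0.38 (-0.70 to 0.96), intervals that include 0. Of the 54 genes lower with MAPKi, 12 were called in the glutamine comparison neither without nor with the block. They were BIRC5, BUB3, UBE2C, NDC80, SPC25, KNL1, CENPE, CENPA, CENPK, CDCA5, SMC2 and SMC4. Some of the 12 passed in another fit of that comparison. The lowest adjusted p over the alternatives was 0.00384 for CENPK, 0.00662 for KNL1, 0.00787 for SMC2, 0.0219 for CENPE and 0.0309 for CENPA.

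**Figure D4:**
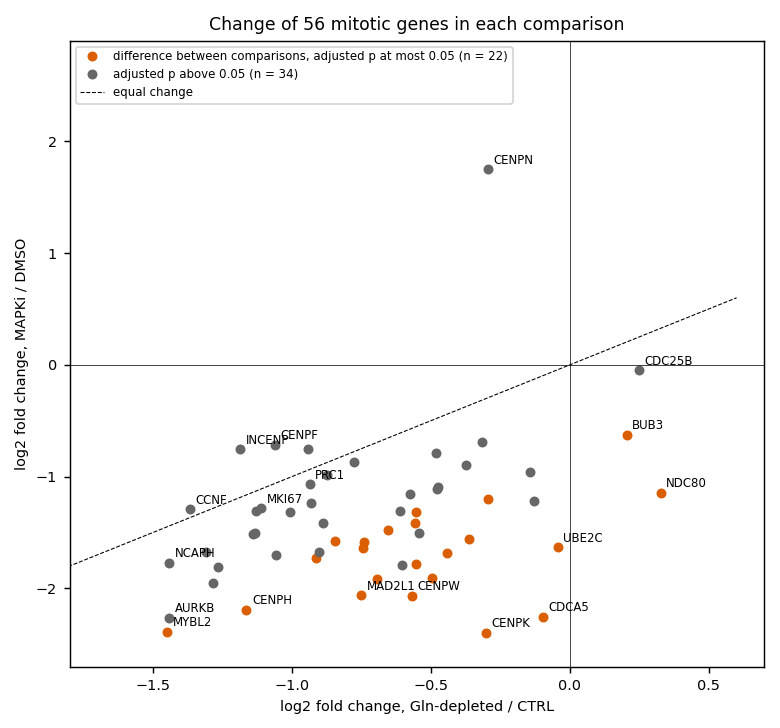
Log2 fold change of each of the 56 genes with Gln depletion (x axis) and with MAPKi (y axis), orange where the difference between the comparisons had an adjusted p of at most 0.05 (22 genes), with a dashed line of equal change. Most points lie under the line, with CDCA5, CENPK, UBE2C, CENPW and NDC80 farthest under it, and CCNF, INCENP, CENPF, ASPM and CENPN lie above it.

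Across the 56 genes the changes of the 2 comparisons had a Spearman correlation of 0.30 (Pearson 0.34), as a description over genes, which are not independent. Changes with MAPKi were larger in genes with shorter exons in total (Spearman 0.45 between log2 fold change and exon length), and no such order was seen without glutamine (0.08).

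Replicate 1 of the glutamine experiment, from the other experimental batch, stood apart for these genes in both groups. CENPE had 597, 3216 and 2503 normalized counts in CTRL and 362, 2959.9 and 2390.5 in Gln-depleted libraries, so that replicate 1 lay far below the others whatever the medium. CENPF had 3186, 10294 and 8094 and 1813, 4717 and 3803, with the same pattern. NCAPD2 went the other way, with 27163, 14628 and 12422 and 13523, 9890.2 and 8259. CTRL replicate 1 was the lowest CTRL library for 22 members and the highest for 32, and the shift had the same sign in both groups for 46 of the 56. The shift followed base composition, with a Spearman correlation to exon GC content of 0.73 in CTRL and 0.62 in Gln-depleted libraries over the members, and of 0.61 and 0.52 over 12446 tested genes. Within experimental batch 2 alone, 2 libraries against 2, 32 members were lower and 0 higher (17.0% and 17.9% of tested genes), with a median log2 fold change of -0.62. Batch 1 held 1 library of each group and gives no test, and 50 of the 56 members were lower in its Gln-depleted library (median log2 difference -0.84). The matching share of all tested genes was not taken. With a GC correction in the fit 36 members were lower and 0 higher (16.4% and 15.0% of tested genes).

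**Figure D5:**
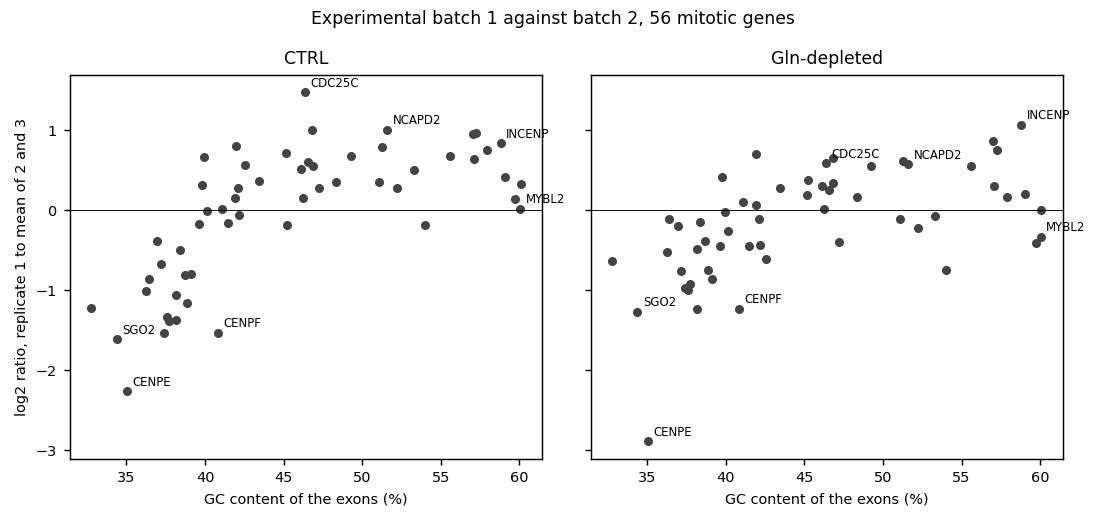
Log2 ratio of replicate 1 to the mean of replicates 2 and 3 (y axis) against the GC content of the exons in percent (x axis) for the 56 genes, CTRL on the left and Gln-depleted on the right. Genes of low GC content such as CENPE and SGO2 lie below 0 in both panels. Genes of high GC content are mixed: INCENP lies above 0 in both panels, while MYBL2 lies at 0.019 in CTRL and at -0.333 in Gln-depleted.

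Lists of 112 further mitotic genes, grouped by complex, showed which partners fell with the 56. Of 110 tested in the MAPKi comparison, 95 were lower and 9 higher (median log2 fold change -0.90), and against a 1.5-fold change 65 were lower, where 38.8% of all tested genes were lower, 39.3% higher and 18.4% lower against a 1.5-fold change. Of 111 tested in the glutamine comparison, 20 were lower and 2 higher (median -0.25), against 8.29% and 9.44% of all tested genes. With the block 45 were lower and 17 higher, against 23.8% and 25.2%. Among the remaining CCAN and CENPA-loading genes, 11 of 11 tested fell with MAPKi, led by the CENPA chaperone HJURP (-2.15 ± 0.08) and MIS18A (-1.97 ± 0.10). Among the MIS12 and Ska complexes and the corona, 14 of 15 tested fell, led by TRIP13, the ATPase that remodels MAD2 (-2.34 ± 0.04), and SKA3 (-2.06 ± 0.07). Of 21 genes of spindle assembly and cytokinesis 20 fell, led by HAUS8 of the augmin complex (-2.18 ± 0.08) and citron kinase, CIT (-1.90 ± 0.08). NUMA1, which tethers microtubules at spindle poles, rose (0.70 ± 0.04) and was the exception of that list. Both remaining condensin II subunits fell, NCAPD3 (-1.42 ± 0.06) and NCAPH2 (-0.97 ± 0.04), as did 7 of 9 centriole genes, led by SASS6 (-1.70 ± 0.06) and STIL (-1.50 ± 0.04).

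In 4 further lists some genes rose with MAPKi. Of 17 genes of APC/C and its regulators 13 fell and 3 rose. The APC/C inhibitor FBXO5 (-2.11 ± 0.07) and the E2 enzyme UBE2S (-1.52 ± 0.05) led the falls, while the subunits ANAPC2 (0.56 ± 0.05), ANAPC16 (0.29 ± 0.05) and ANAPC13 (0.14 ± 0.04) rose by little. Of 13 genes of cohesin and its regulators 9 fell, led by the histone H3 kinase HASPIN (-2.03 ± 0.07) and the acetyltransferase ESCO2 (-1.76 ± 0.05), and the loaders MAU2 (0.73 ± 0.05) and NIPBL (0.22 ± 0.06) rose. Among 12 regulators of mitotic entry 10 fell. The phosphatase CDC25A had the largest fall of all lists (-2.86 ± 0.10), in contrast to its relative CDC25B, and the CDK1-inhibiting kinase PKMYT1 followed (-2.13 ± 0.11). The PP2A inhibitors ARPP19 (0.32 ± 0.04) and ENSA (0.23 ± 0.04) rose. Of 10 MuvB and DREAM genes 9 fell, led by E2F5 (-1.47 ± 0.10) and LIN9 (-1.35 ± 0.09), and the pocket protein RBL2 (p130), the DREAM subunit of resting cells, rose (0.35 ± 0.05).

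Without glutamine, the list of spindle assembly and cytokinesis held 8 of the 20 partners called lower, among them DLGAP5 (-1.19 ± 0.22, adjusted p = 0.0104), TACC3 (-1.20 ± 0.24, adjusted p = 0.013) and CIT (-1.28 ± 0.32, adjusted p = 0.0313). The list of the MIS12 and Ska complexes and the corona held 4, DSN1, TRIP13, KNSTRN and SPAG5. Those called higher were the APC/C subunit ANAPC16 (1.19 ± 0.19, adjusted p = 0.00694) and LIN52 of the MuvB core (0.68 ± 0.18, adjusted p = 0.0351). No centriole gene was called without the block. With the block, 23.8% of all tested genes were lower and 25.2% higher, and no list was tested against these shares. Of 21 genes of spindle assembly and cytokinesis, 12 were lower and 0 higher. Of 15 tested genes of the MIS12 and Ska complexes and the corona, 10 were lower and 1 higher. The 13 genes of cohesin and its regulators held 5 lower, among them SMC1A (-0.92 ± 0.11), and 5 higher, among them STAG1 (0.82 ± 0.17). The centriole list of 9 genes held 2 lower, CENPJ (-0.43 ± 0.14) and CEP152 (-0.97 ± 0.15), and 2 higher, CEP135 (0.45 ± 0.16) and CEP63 (0.88 ± 0.11). The CCAN and CENPA-loading list of 12 held 5 lower and 0 higher, and the condensin II list of 2 held 2 and 0. The APC/C list of 17 held 2 and 3, the list of mitotic entry of 12 held 6 and 2, and the MuvB and DREAM list of 10 held 1 and 4.

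The study is about proteins rich in the acidic residues Asp and Glu, so the coding sequences of the 56 genes were described. Codons of Asp and Glu made up a median of 13.4% of the coding sequence over the members, against 11.8% over 12538 tested genes and 12.1% over the tested genes lower with MAPKi. The excess lay in Glu (8.28% against 6.89%) and not in Asp as a whole (4.63% against 4.76%). The GAA codon of Glu reached 4.69% against 2.76%, and the GAT codon of Asp 2.46% against 2.08%. Lys codons differed more than those of Asp and Glu together, 8.07% against 5.69%. Above the median of all tested genes were 39 of the 56 members for Asp plus Glu and 47 for Lys. The members ranged from 6.79% to 20.1% Asp plus Glu codons, the highest being CENPK. Within the 56 genes the share showed no order with the change under MAPKi (Spearman 0.09 for Asp plus Glu and 0.12 for Lys, a description over genes).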

How the data were processed

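RNA of A375 cells (cytoplasmic per the labels, total RNA per the study's methods) was depleted of rRNA and sequenced as paired reads. Per the labels and methods, the authors trimmed reads with fastp 0.20.1, aligned them to GRCh38 with HISAT2 2.2.1 and counted them per gene with HTSeq 0.13.5, and they deposited raw counts, used here as deposited. The strand setting is not given in the sources used here. Protein-coding genes were kept when their normalized counts averaged 10 or more, and tested with edgeR 4.0.16 (TMM, quasi-likelihood, two-sided, Benjamini-Hochberg over all tested genes) in R 4.3.3, and also against a 1.5-fold change. DESeq2 1.42.0 was an alternative. Log2 fold changes are given ± the standard error of the fit and levels ± the SD. Coding sequence, exon length and overlap came from GENCODE 44 (GRCh38), promoters from RefSeq; no protein table was used, so amino acid shares are shares of codons of the longest coding sequence. The fit was tested on simulated data.

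All 56 members are named by role. Values in every library are given for the largest and the smallest change of each role with MAPKi, for members not called with MAPKi and for those called without glutamine, plus a few singled out after their values were seen. From each further list, the 2 largest changes and those against its majority are named. Members and lists were chosen with earlier results of these data known. Same-numbered libraries deviated together in the glutamine experiment (correlations 0.663, 0.552 and 0.433), where the labels tie the numbers to batches, and calls with the block are given beside those without it.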

Additional observations from a re-analysis of the deposited data

How the results depend on the processing

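The count of 54 members lower with MAPKi ranged from 51 to 55 over its alternatives, which were another scaling, DESeq2, other count limits, all genes of the table, a fit of the 12 libraries, the replicate block, a GC correction and each library left out. The count higher was 0 except for 1 gene, CENPN, without MAPKi replicate 1 or 2 (0 to 1 with each library left out). Numbers of the MAPKi experiment did not pair the libraries (correlations 0.118, 0.028 and 0.044), and the block left its count at 54. The 18 members lower without glutamine became 42 with the replicate block, 36 with the GC correction, 46 with both, 36 in the fit of 12 libraries, 32 within experimental batch 2, 3 against a 1.5-fold change and 3 to 19 with each library left out. The share of all tested genes called lower moved too. It was 8.29% in the main fit, 23.8% with the block, 16.4% with the GC correction, 17.0% within batch 2 and 2.1% against a 1.5-fold change. Other shares are those stated above, and the remaining ones are not given here. The GC correction with the block called 1 member, CDC25B, higher. The 22 members whose change differed between the experiments became 37 with the block, with 1, INCENP, in the other direction, and 18 to 30 with each library left out, with 0 to 1 in the other direction. The smaller changes of calls came with the other scaling and count limits (17 to 21 lower without glutamine, 21 to 25 for the difference). Of the partner genes, 9 higher with MAPKi became 2 against a 1.5-fold change. The 20 lower without glutamine became 0 against a 1.5-fold change, 45 with the block and 4 to 23 with each library left out, and the 2 higher became 1, 17 and 1 to 5, and 6 by DESeq2. The cause of these moves was not tested.

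Signs turned only in values that had not passed. Without glutamine, CDCA5 was 0.0165 with the GC correction, 0.0054 with the GC correction and block and 0.0196 within batch 2, where CENPN was 0.0967 and UBE2C 0.119. With each library left out, the log2 fold change without glutamine ran from -0.20 to 0.0184 for CDCA5, -0.61 to 0.35 for CENPE, -0.48 to 0.18 for SMC4 and -0.16 to 0.0808 for UBE2C. The difference between experiments ran from -0.25 to 0.11 for ANLN, -0.0385 to 0.42 for ASPM, -0.28 to 0.43 for CCNF, -0.54 to 2.59 for CENPN, -0.47 to 0.08 for FOXM1, -0.48 to 0.17 for NCAPD2, -0.30 to 0.0392 for PRC1 and -0.62 to 0.0669 for SMC2. In the narrower promoter window the shares were 54.3% for CHR, 52.2% for CCAAT and 4.35% for E2F. Read against genes lower with MAPKi, the excess of Asp plus Glu codons was 1.34 percentage points in place of 1.65. With 3 libraries a group, SPC25 and CENPN had too few reads for firm values.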
